A study of Macaca mulatta with 30 samples.

Results

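The 6 fibroblast arrays and the 6 testis arrays of a rhesus macaque series were compared directly, which used 12 of its 30 arrays. They were chosen by their tissue label and center alone, and no measured value entered the choice. The fibroblast RNA was supplied by Nebraska from 1 immortalized cell line, and how the line was immortalized was not given in the sources used here. The testis RNA came from Oregon, and neither the age nor the number of the animals was given. No treatment or allele was named for either source. Both RNAs were split into aliquots, 2 of which were labeled and hybridized at each of 3 centers (Oregon, Nebraska and Yerkes) on the Rhesus Macaque Genome GeneChip. Since each source was 1 RNA, the p-values cover only how labeling and hybridization varied, and no variation among animals or cultures. The comparison asks in which direction, and by how much, cultured matrix-producing cells and an organ that contains stroma of its own differed.

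Fibroblasts are the cells that secrete and remodel the collagen-rich matrix of connective tissue, and in culture they proliferate and take on many features of wound repair. The testis holds seminiferous tubules with Sertoli cells and germ cells at successive stages of sperm formation, wrapped in contractile peritubular cells. Between the tubules lie steroid-producing Leydig cells, vessels, macrophages and a loose stroma. In bulk RNA such as this, fewer cells of a type and less RNA per cell cannot be told apart.

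Values are log2 signals of probesets, the sets of probes that measure 1 transcript on the array. The mean signal of the 12 arrays lay between 6.317 and 6.914, with the Yerkes arrays highest for both tissues, and center was a term of every fit. The balance of 3' and 5' signals of control transcripts differed between the RNAs. For GAPDH, a glycolytic enzyme used as a control, the 3' probeset exceeded the 5' one by 1.81 ± 0.578 in fibroblast and by 0.688 ± 0.290 in testis (SD, n = 6 arrays each), and for ACTB, a cytoskeletal actin, by 2.00 ± 0.552 in fibroblast and 0.745 ± 0.337 in testis. The differences of 1.12 and 1.26 each gave p = 0.00926 in an exact two-sided permutation test within centers, the smallest p that its 216 arrangements allow. By center, the GAPDH difference was 0.36 on the Oregon arrays, 2.01 on the Nebraska arrays and 0.99 on the Yerkes arrays, and the ACTB difference 0.26, 2.18 and 1.33 in the same order of centers. Their part in the results was not tested. The testis array of aliquot 1 at Nebraska stood apart from aliquot 2, with 188 probesets higher and 19 lower by at least 1 on the log2 scale. For the other 5 pairs of aliquots these counts lay between 4 and 57, and values without this array are given for the Sertoli cell genes, IGF2, COL18A1 and the 3 named genes whose call it changed, TIMP2, ODF2 and THY1.

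A gene was called when limma's adjusted p was under 0.05 over all 52865 probesets and the log2 difference, fibroblast minus testis, was at least 1 in size. Of 14133 genes, each read from its probeset with the highest mean signal, 1630 (11.5%) were higher in fibroblast and 1326 (9.38%) were lower. The differences were at least 2 in 459 genes higher in fibroblast (3.25%) and in 363 lower genes (2.57%). The median difference of all genes was 0.11, with an interquartile range of 0.77. Without a minimum difference 10447 genes (73.9%) passed, so the minimum and not the p-value set the counts. The direction was shared by the 3 centers for 2955 of the 2956 called genes, and 2349 of them differed by at least 1 at each center. In 337 of the genes higher in fibroblast (20.7%) the testis mean lay below 6.251, the median over probesets. Among the genes lower in fibroblast the fibroblast mean lay below it in 589 (44.4%), so these differences were often taken over signals near the low end of the scale.

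Many of the genes with the largest positive differences encode secreted proteins that degrade or build matrix, together with inflammatory mediators. MMP3, the metalloproteinase stromelysin 1, ran from 13.56 to 14.37 in fibroblast (median 13.81) and from 3.89 to 4.88 in testis (median 4.29). The difference of 9.52 (SE 0.09), or 732-fold on this scale, was the largest of all genes in either direction. SERPINB2, an inhibitor of plasminogen activators, had a median of 12.94 in fibroblast (12.81 to 13.52) and of 4.65 in testis (4.35 to 5.36). The collagenase MMP1 had medians of 11.98 and 4.41 in fibroblast and testis, and the secreted WNT antagonist DKK1 medians of 11.87 and 4.68. Their differences were 8.30, 7.55 and 7.22. For each of these genes all fibroblast arrays lay above all testis arrays, which held for 2382 genes (16.9%) in all.

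TNC, the matrix glycoprotein tenascin C, followed with a difference of 6.45, and PCOLCE2, which enhances cleavage of the procollagen C-propeptide, with 6.24. The membrane glycoprotein GPNMB differed by 6.05 and the serine protease inhibitor TFPI2 by 5.81. FAP, a cell surface protease of activated fibroblasts, was at 11.11 to 11.78 in fibroblast and 5.33 to 6.04 in testis. Mediators of inflammation were among them, with differences of 5.63 for the neutrophil chemokine CXCL8, 5.58 for the pentraxin PTX3 and 5.38 for the cytokine IL6. SOD2, the mitochondrial superoxide dismutase, differed by 5.36. The collagen-binding proteoglycan ASPN and the secreted protein CTHRC1 completed the 15 at 5.43 and 5.28. Their adjusted p from limma lay between 2.34e-17 and 5.08e-11, and all 15 were separated by tissue on every array. Both follow largely from the choice, which took called genes, separated at each center, with the largest differences. In 14 of them the testis mean was below the median over probesets.

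The genes with the largest negative differences were of several kinds, among them a neuropeptide precursor, a Sertoli cell hormone, a germ cell gene and 3 imprinted genes. PENK, the precursor of enkephalins, ran from 3.49 to 4.66 in fibroblast (median 4.32) and from 10.82 to 11.24 in testis (median 11.16), a difference of -6.86 (SE 0.14). GSTM3, a glutathione transferase, had medians of 5.61 in fibroblast and 12.33 in testis. The imprinted genes PEG3 and H19, a zinc finger protein and a noncoding RNA, differed by -6.57 and -6.50, and MEST, another imprinted gene, by -5.85. PLA2G1B, a secreted phospholipase best known from the pancreas, was at 5.10 to 5.85 in fibroblast and 11.22 to 11.77 in testis. The 3 imprinted genes were separated by tissue on all 12 arrays, as were the others of this group, which the choice of genes favored.

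AMH, the Sertoli cell hormone that causes regression of the Müllerian duct, had a median of 6.36 in fibroblast (6.24 to 6.94) and of 12.28 in testis (11.77 to 13.09). Its highest array was aliquot 1 of Nebraska, and the difference of -5.79 became -5.62 without it. TKTL1, related to transketolase and used as a germ cell marker, differed by -5.58, and SERPINA5, the protein C inhibitor, by -5.38. DSP, the desmosome protein desmoplakin, was at 4.15 to 5.28 in fibroblast and 10.15 to 10.80 in testis. The interferon-induced gene IFI27, the adaptor GRB14, the chromatin reader PWWP3B and the sodium pump regulator FXYD6 differed by between -5.57 and -5.29. Over these 15 genes, chosen in the same way as the positive ones, the adjusted p from limma lay between 5.97e-17 and 1.19e-13. The 15 included BDKRB1, a bradykinin receptor, at -5.68, but its other probeset gave a difference of 4.30, so its direction depends on the probeset.

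**Figure D1:**
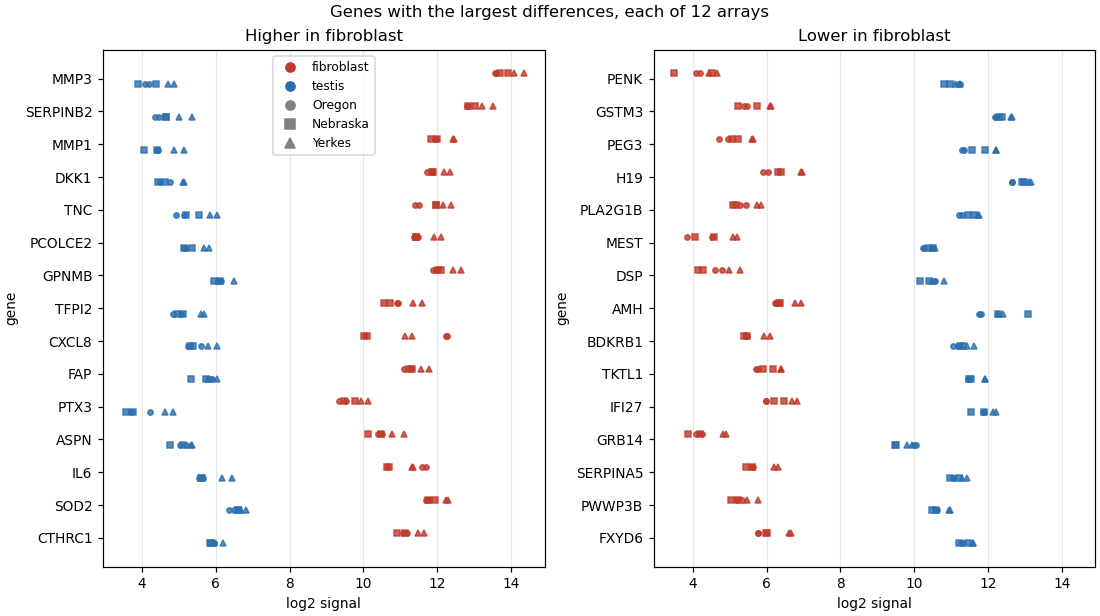
Log2 signal (x axis) of the 15 genes with the largest positive (left) and negative (right) differences (y axis) on each of 12 arrays, with fibroblast in red, testis in blue and a marker shape for each center. The genes were chosen to be separated at each center. For every gene the fibroblast and testis arrays form separate groups, from 13.56 to 14.37 against 3.89 to 4.88 for MMP3.

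Structural matrix genes were mostly higher in fibroblast, but by widely differing amounts. Of 30 genes measured, 16 were called higher and 3 lower, with a median difference of 1.17 beside 0.11 over all genes. The counts of this and each later list stand beside 11.5% higher and 9.38% lower over all genes. The adhesive glycoproteins stood at the top. THBS1, a thrombospondin, was at 10.24 to 11.10 in fibroblast and 5.87 to 6.25 in testis, and THBS2 at 11.01 to 11.78 in fibroblast and 6.75 to 7.39 in testis, with differences of 4.62 and 4.33. FN1, fibronectin, differed by 3.37 and COL12A1, a collagen associated with fibrils, by 3.22. The main fibrillar collagen chains COL1A1 and COL1A2 differed by 1.5 (SE 0.11) and 1.38 (SE 0.06). COL1A1 was at 12.95 to 13.34 in fibroblast and 11.42 to 12.31 in testis, and COL1A2 at 13.55 to 14.25 in fibroblast and 12.02 to 12.83 in testis, so both chains gave strong signals in testis too. DCN, the small proteoglycan decorin, was not called at a difference of 0.77, with 13.09 to 14.03 in fibroblast and 12.63 to 13.27 in testis. The tissues overlapped on DCN over all centers, but within each center both fibroblast arrays lay above both testis arrays, with differences of 1.10, 0.42 and 0.78 for Oregon, Nebraska and Yerkes.

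The 3 matrix genes lower in fibroblast were 10% of the list, close to the 9.38% over all genes. They encode components of basement membranes or of the zone beneath them. COL15A1 was at 6.33 to 7.02 in fibroblast and 10.27 to 10.58 in testis, a difference of -3.71 (SE 0.09). LAMA2, a laminin chain, differed by -1.46. COL18A1, the precursor of endostatin, differed by -1.29, and by -1.09 without aliquot 1 of Nebraska, on which it stood at 9.77 in testis. The other probesets of COL15A1 and COL18A1 gave -0.40 and 0.71, and 1 of LAMA2 gave 0.19, none of them called. Not all basement membrane genes went this way, since LAMB1 and the linker protein NID1 were higher in fibroblast by 1.26 and 1.46.

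Enzymes and chaperones that modify and crosslink collagen were higher in fibroblast nearly throughout. Of 21 genes measured, 17 were called higher and none lower, with a median of 1.96. Behind PCOLCE2 came P4HA2, a subunit of the prolyl hydroxylase that stabilizes the triple helix, at 11.78 to 12.71 in fibroblast and 7.78 to 8.61 in testis. Its difference was 3.86 (SE 0.09). The crosslinking oxidases LOX, LOXL1 and LOXL2 differed by 3.36, 3.17 and 2.91. All 3 lysyl hydroxylases were called, with 2.56 for PLOD2, 2.41 for PLOD3 and 2.34 for PLOD1. The PLOD1 call rests on 1 probeset, since 3 others were not called, the lowest at -0.45. The collagen chaperone SERPINH1 was at 11.73 to 12.34 in fibroblast and 9.94 to 10.64 in testis, a difference of 1.68. For 18 of the 21 genes all fibroblast arrays lay above all testis arrays, beside 16.9% of all genes.

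**Figure D2:**
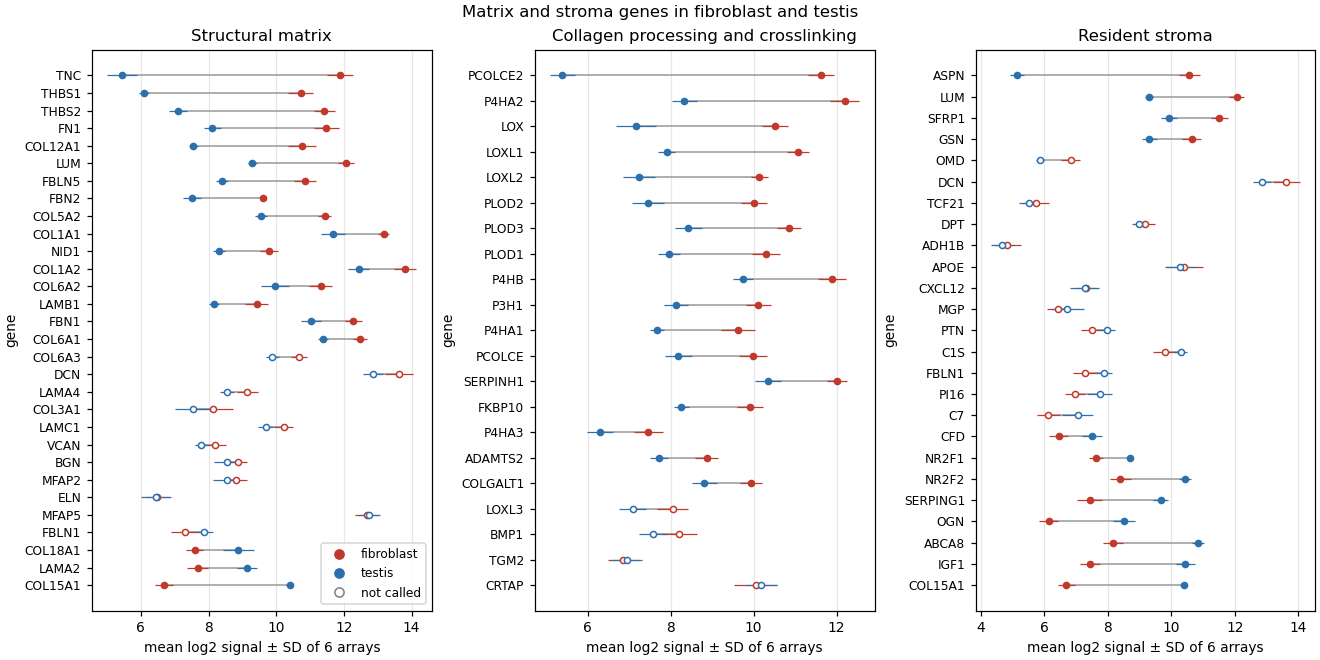
Mean log2 signal ± SD of 6 arrays (x axis) in fibroblast (red) and testis (blue) for each measured gene (y axis) of the structural matrix, collagen processing and resident stroma lists, with open circles for genes not called. Collagen processing genes lie to the right in fibroblast, by up to 6.24 for PCOLCE2, and most resident stroma genes do not.

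Genes of matrix degradation held 3 of the 4 largest positive differences among the named genes, MMP3, MMP1 and the inhibitor SERPINB2. Of 26 metalloproteinases, plasminogen activators and inhibitors measured, 17 were higher in fibroblast and 1 lower, with a median of 1.36. After MMP3, SERPINB2 and MMP1 came MMP10, stromelysin 2, at 8.38 to 9.22 in fibroblast and 3.72 to 4.74 in testis, and MMP12, the macrophage elastase, at 9.48 to 10.05 in fibroblast and 4.87 to 5.44 in testis. Each differed by 4.59. The gelatinase MMP9 differed by 3.69. The other gelatinase MMP2 differed by 1.57 and was bright in both tissues, at 12.08 to 12.59 in fibroblast and 10.59 to 10.97 in testis. TIMP1 was higher by 1.32, TIMP3 stood at 6.42 to 6.96 in fibroblast and 7.10 to 7.78 in testis without being called, and TIMP2 was called lower by -1.16 (SE 0.28, adjusted p = 0.00202 from limma). TIMP2 did not hold at each center (Oregon 0.02, Nebraska -2.31, Yerkes -1.19), and its other probeset gave 0.55. Without aliquot 1 of testis at Nebraska it was -0.91 and not called.

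Genes of the mesenchymal cell surface and of the contractile cytoskeleton were higher in fibroblast, with 21 of 28 called and none lower (median 1.72). NT5E, the surface nucleotidase CD73, was at 9.83 to 10.49 in fibroblast and 4.76 to 5.43 in testis, a difference of 5.00 (SE 0.08). TAGLN, the actin-binding protein transgelin, was at 12.60 to 13.30 in fibroblast and 8.13 to 8.92 in testis. The calcium-dependent membrane-binding proteins ANXA1 and ANXA2 differed by 4.61 and 4.14, and all 4 genes were separated on every array. S100A4, a calcium-binding protein often used to mark fibroblasts, differed by 3.89. VIM, the mesenchymal filament vimentin, differed by 1.48. THY1, another fibroblast surface marker, was just below the minimum at 0.99, with 9.22 to 9.93 in fibroblast and 8.27 to 8.77 in testis, and was called at 1.005 without aliquot 1 of testis at Nebraska. Of the 15 cultured fibroblast markers measured, 12 were called higher and none lower, with a median of 3.36. Their mean level was 11.51 to 12.03 on the fibroblast arrays and 8.07 to 8.61 on the testis arrays. This list was chosen with earlier results of these data known, so its counts are no independent check of the label.

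Of 20 inflammatory and secreted factors measured, 10 were higher in fibroblast and none lower (median 1.37). FGF2, a mitogen of fibroblasts, was at 8.91 to 9.45 in fibroblast and 4.13 to 5.02 in testis, a difference of 4.57. The monocyte chemokine CCL2 differed by 4.15, the epidermal growth factor receptor ligand AREG by 3.51 and the cytokine LIF by 3.27. For 8 of these 10 genes the testis mean lay below the median over probesets. The size of the difference depended on the center for 4 of the 10, among them CXCL8 and IL6. CXCL12, a chemokine that retains stem and immune cells, was not called at 0.05, with 7.05 to 7.73 in fibroblast and 6.92 to 7.94 in testis. Another probeset of CXCL12 averaged 5.40 in fibroblast and 9.07 in testis, a difference of -3.67 that passed the test.

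Secreted regulators of BMP, WNT and activin signaling were mostly higher in fibroblast or not called. Of 29 genes, 13 were higher and 1 lower, with a median of 0.90. CCN1, a matricellular protein, was at 11.62 to 12.23 in fibroblast and 7.01 to 7.35 in testis, a difference of 4.74. The stress-responsive ligand GDF15 differed by 4.08, the activin antagonist FST, follistatin, by 3.82, and the noncanonical ligand WNT5A by 3.28. GREM1, a BMP antagonist, was at 7.15 to 9.04 in fibroblast and 5.47 to 6.41 in testis. The exception was WIF1, which binds and inhibits WNT ligands, at 3.69 to 4.30 in fibroblast and 6.20 to 6.88 in testis, a difference of -2.58 (SE 0.10).

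Genes known from the quiescent stroma of organs went in both directions. Of 25 measured, 4 were higher in fibroblast and 8 lower, with a median of -0.48. Besides ASPN, the keratan sulfate proteoglycan LUM was higher by 2.78, the WNT antagonist SFRP1 by 1.58 and the actin-severing protein GSN by 1.34. Among the lower genes, IGF1, a growth factor of many stromal cells, was at 7.20 to 7.91 in fibroblast and 10.10 to 10.80 in testis, a difference of -3.0 (SE 0.07). The lipid transporter ABCA8 differed by -2.70, the proteoglycan OGN, also called osteoglycin, by -2.37, and SERPING1, the inhibitor of complement C1, by -2.23. NR2F2, a nuclear receptor of stromal cells, was at 8.04 to 8.86 in fibroblast and 10.08 to 10.65 in testis. All 8 lower genes were separated on every array (13.9% of all genes were lower on all fibroblast arrays).

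Genes of the insulin-like growth factor system and imprinted genes differed in both directions or were not called. Of 22 measured, 3 were higher in fibroblast, 7 lower and 12 not called (median -0.12). All 3 higher genes encode binding proteins that regulate the growth factors. IGFBP2 was at 12.30 to 12.98 in fibroblast and 8.46 to 9.19 in testis, and IGFBP3 and IGFBP4 differed by 3.37 and 2.38, while 4 other binding proteins were not called. The lower genes included both growth factors, IGF1 and IGF2. IGF2 was at 6.59 to 7.67 in fibroblast and 9.17 to 11.38 in testis, and its difference of -2.67 (SE 0.30) became -2.29 (SE 0.105) without aliquot 1 of Nebraska, the highest testis array. DLK1, an imprinted surface protein of progenitor cells, was at 5.25 to 6.29 in fibroblast and 10.37 to 10.78 in testis. Together with PEG3, H19, MEST and PLAGL1, an imprinted zinc finger gene at -2.35, these made 6 imprinted genes lower in fibroblast. Other imprinted genes were not called, with 0.78 for NDN and -0.51 for SNRPN, but the other SNRPN probeset was called lower, at -1.03. The list pools both kinds of genes, and no share was counted for imprinted genes alone.

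HOX genes, which carry positional identity in fibroblasts, gave little signal. Of 25 measured, none was higher and 3 were lower, HOXC6 by -1.52, HOXD9 by -1.23 and HOXD4 by -1.06. These 3 were 12% of the list, close to the 9.38% over all genes. In 19 of the 25 the means of both tissues were below the median over probesets, beside 3351 of all 14133 genes. After quantile normalization of the 12 arrays together, or centering each on its median, HOXD4 was at -0.98 and not called.

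Genes of DNA replication and mitosis were higher in the cell line, although by moderate amounts. Of 27 measured, 15 were higher and none lower, with a median of 1.15. TYMS, thymidylate synthase, was at 9.92 to 10.48 in fibroblast and 6.56 to 7.19 in testis, a difference of 3.28 (SE 0.07). The mitotic cyclin CCNB1 differed by 2.24 and MKI67, which encodes the proliferation antigen Ki-67, by 1.54. PTTG1, securin, differed by 1.92, but another of its probesets gave -2.17. PCNA, the replication clamp, was not called at 0.72, with 10.16 to 10.88 in fibroblast and 9.57 to 10.08 in testis. Of the 27 genes, 2 were higher by at least 2, beside 3.25% of all genes.

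Some inhibitors of the cell cycle differed widely and in the same direction as the replication genes. Of 19 genes of cell cycle control and p53 targets, 9 were higher in fibroblast and 2 lower, with a median of 0.96. CDKN2A, the locus of p16INK4a and ARF, was at 9.87 to 10.32 in fibroblast and 5.51 to 6.18 in testis, a difference of 4.37 (SE 0.07). CDKN1A, the p53 target p21, was at 11.20 to 11.74 in fibroblast and 7.03 to 7.68 in testis, a difference of 4.17 (SE 0.06). TERT, the catalytic subunit of telomerase, was at 9.60 to 10.38 in fibroblast and 5.45 to 6.23 in testis, a difference of 4.23 (SE 0.06). These 3 genes were separated widely on all 12 arrays, and the interaction of tissue and center had adjusted p from limma of 0.204 for CDKN2A, 0.616 for CDKN1A and 0.528 for TERT. The other TERT probeset did not differ between the tissues by the minimum, at -0.06. Cyclin D1, CCND1, was higher by 3.45. The kinase inhibitor CDKN1B and the sestrin SESN1 went the other way, at -1.33 and -1.36.

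More genes were higher than lower in fibroblast in both metabolic pathways examined, with 7 genes of each not called. Of 17 genes of cholesterol synthesis and uptake, 10 were higher and none lower (median 1.11), led by INSIG1, a sterol sensor of the endoplasmic reticulum, at 2.52 and by the sterol isomerase EBP at 2.39. Of 20 genes of glycolysis and the response to hypoxia, 11 were higher and 2 lower (median 1.3). ADM, the vasoactive peptide adrenomedullin, was at 11.08 to 11.69 in fibroblast and 5.93 to 6.57 in testis, a difference of 5.18 (SE 0.07). The lactate exporter SLC16A3 differed by 4.29, the phosphofructokinase PFKP by 3.45 and the glucose transporter SLC2A3 by 3.35. HK2, an inducible hexokinase, was at 7.71 to 8.44 in fibroblast and 8.83 to 9.35 in testis and was not called at -0.99. The lower genes were TKTL1 and GPI, glucose phosphate isomerase, at -1.33. GPI had another probeset called in the other direction, at 1.13.

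**Figure D3:**
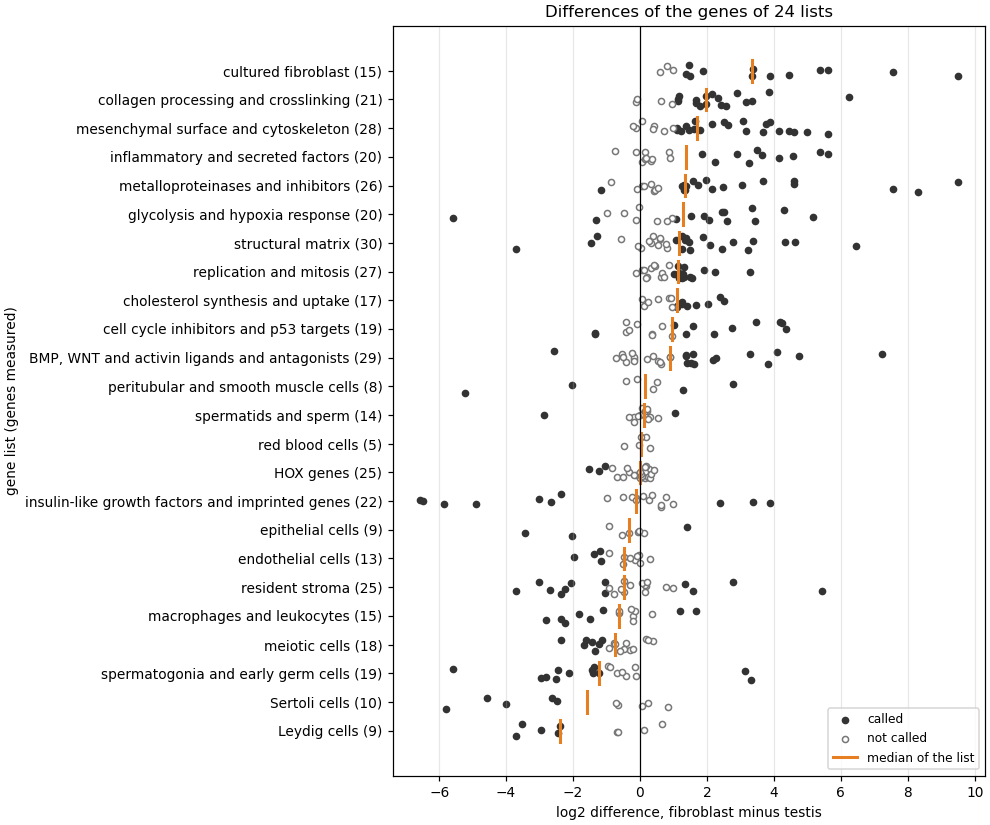
Log2 difference, fibroblast minus testis (x axis), of each measured gene of 24 gene lists (y axis, with the number measured), filled where called, with the median of each list as a bar. Cultured fibroblast markers have the highest median, 3.36, and Leydig cell markers the lowest, -2.38.

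About as many markers of Leydig and Sertoli cells were lower in fibroblast as were not called, and none was higher. Of 9 Leydig cell genes, 5 were lower and none higher (median -2.38). HSD3B2, a hydroxysteroid dehydrogenase, was at 4.01 to 4.46 in fibroblast and 7.63 to 8.33 in testis, a difference of -3.70 (SE 0.09). CYP17A1, the enzyme that opens the way to androgens, was at 5.78 to 6.39 in fibroblast and 9.30 to 9.85 in testis. STAR, which carries cholesterol into mitochondria, differed by -2.94, FDXR, the ferredoxin reductase, by -2.46 and NR0B1, a nuclear receptor of steroidogenic cells, by -2.38. The other 4 were not called. FDX1, ferredoxin, was at 8.88 to 9.41 in fibroblast and 8.31 to 8.68 in testis, and NR5A1, a regulator of steroidogenic genes, at 6.53 to 7.43 in fibroblast and 7.10 to 8.01 in testis. The mean level of the list was 6.68 to 7.25 on fibroblast arrays and 8.43 to 8.96 on testis arrays.

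Of 10 Sertoli cell genes, 5 were lower in fibroblast and none higher (median -1.60). After AMH came INHA, the inhibin alpha subunit, at 6.12 to 7.17 in fibroblast and 10.84 to 11.74 in testis, and WT1, a transcription factor of the gonad, at 5.98 to 6.87 in fibroblast and 10.24 to 10.61 in testis. Their differences were -4.57 and -4.01. The gonadal transcription factors SOX9 and GATA4 differed by -2.63 and -2.48. Aliquot 1 of Nebraska was the highest testis array for AMH, INHA, SOX9 and GATA4. Without it the differences were -4.41 for INHA, -2.37 for SOX9 and -2.31 for GATA4, and all 5 genes were still called. The mean level of the list was 5.99 to 6.67 on fibroblast arrays, against 7.98 to 8.53 on testis arrays. GDNF, a factor for spermatogonial stem cells, was not called, at 5.47 to 6.62 in fibroblast and 4.87 to 5.69 in testis.

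Germ cell genes were described by stage, and differences between the stages were not tested. Of 19 genes of spermatogonia and early germ cells, 10 were lower in fibroblast and 2 higher (median -1.23). MAEL, which acts in transposon silencing, was at 4.73 to 5.48 in fibroblast and 7.74 to 8.31 in testis, a difference of -2.95 (SE 0.06). The germ cell RNA-binding protein DAZL differed by -2.82 and the helicase TDRD9, of the piRNA pathway, by -2.50. The exceptions were TFAP2C, a transcription factor, at 9.07 to 9.72 in fibroblast and 5.82 to 6.50 in testis, and UCHL1, a ubiquitin hydrolase also known from neurons, at 11.13 to 11.70 in fibroblast and 7.68 to 8.58 in testis. Both are expressed outside germ cells too, and they were higher by 3.32 and 3.13.

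Of 18 meiotic genes, 7 were lower in fibroblast and none higher (median -0.76). The meiotic cohesin subunit STAG3 was at 5.99 to 6.86 in fibroblast and 8.41 to 9.07 in testis, a difference of -2.35. SYCP1, of the synaptonemal complex, differed by -1.66. In 8 of the 18 the means of both tissues were below the median over probesets, beside 3351 of all 14133 genes. Of 14 genes of spermatids and sperm, 1 was lower and 1 higher, and the median was 0.11, the same as over all genes. The lower gene was ZPBP, of the acrosome, at 4.52 to 5.17 in fibroblast and 7.56 to 7.93 in testis. The higher gene was ODF2, which also encodes a centrosome protein in dividing cells, at 1.04, with 0.66 at Oregon alone and 0.98, not called, without aliquot 1 of testis at Nebraska. Genes usually abundant in sperm-forming tissue were not separated. PRM1, a protamine, was at 6.27 to 6.95 in fibroblast and 5.99 to 7.0 in testis, and the acrosomal protease ACR at 5.56 to 6.29 in fibroblast and 5.36 to 6.27 in testis. In 7 of these 14 genes both tissues lay below the median over probesets, and 12 of the 14 were not called. Among markers of testis cells, 5 of 9 Leydig cell, 5 of 10 Sertoli cell and 10 of 19 early germ cell genes were lower in fibroblast. Over all genes 9.38% were lower. Of the early germ cell markers 2 were higher, and the lower ones were 7 of 18 for meiotic genes. In the spermatid and sperm list 1 of 14 was lower and 1 higher. The label names the tissue but no age, so it does not say which germ cell stages were present. These lists were chosen with earlier results of these data known, so none is an independent check of the label.

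**Figure D4:**
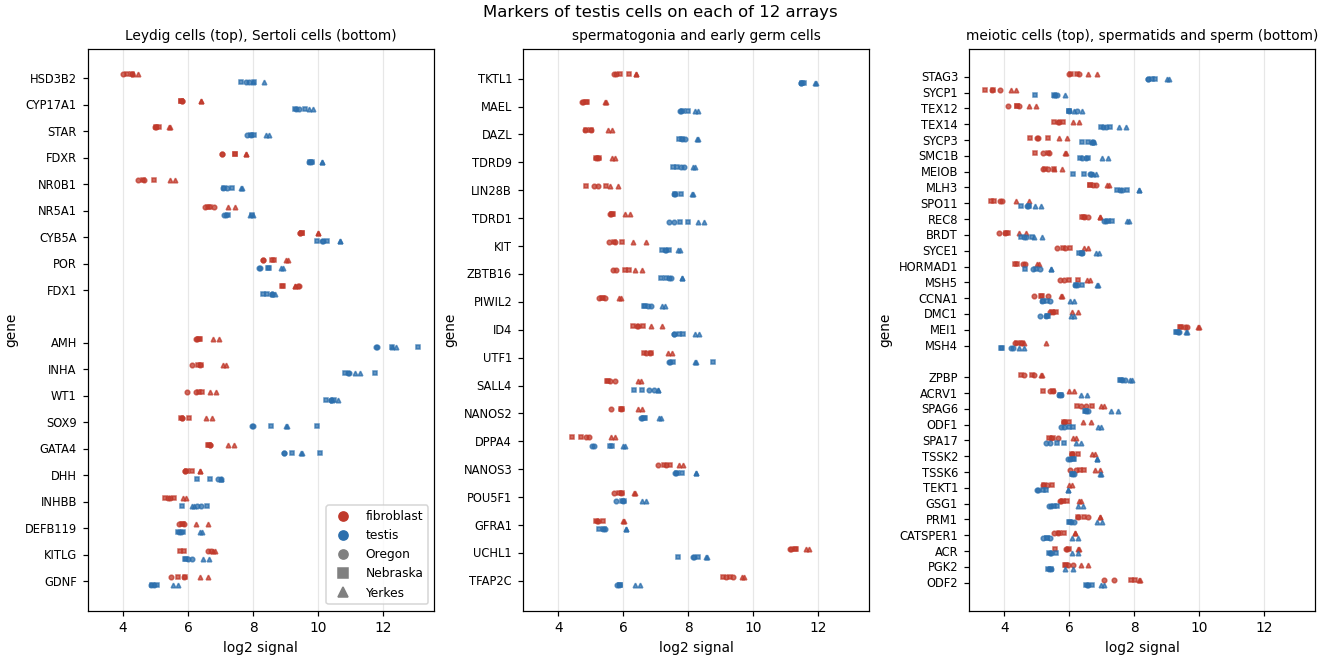
Log2 signal (x axis) of markers of testis cells (y axis) on each of 12 arrays, with fibroblast in red and testis in blue. AMH, INHA and WT1 lie far to the right in testis, and the spermatid genes other than ZPBP lie close together.

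Markers of other cell types of an organ differed in direction between and within lists. Of 8 peritubular and smooth muscle genes, 2 were higher and 2 lower in fibroblast (median 0.15). MYH11, the smooth muscle myosin heavy chain, was at 5.81 to 6.74 in fibroblast and 11.23 to 11.64 in testis, a difference of -5.22 (SE 0.09), while the integrin ITGA8 was higher by 2.77. Of 13 endothelial genes, 4 were lower and none higher (median -0.48), led by VWF, the von Willebrand factor, at -1.97. Of 15 macrophage and leukocyte genes, 6 were lower and 2 higher (median -0.62). CD74, the invariant chain of class II molecules, was at 6.04 to 7.0 in fibroblast and 8.70 to 9.79 in testis, and the leukocyte phosphatase PTPRC differed by -2.36. The higher 2 were the lipopolysaccharide receptor CD14 at 1.66 and the lysosomal protein CD68 at 1.18, but another CD68 probeset gave -1.71. Of 9 epithelial genes, 2 were lower and 1 higher (median -0.33), with EPCAM, an epithelial adhesion molecule, at 2.95 to 4.36 in fibroblast and 7.06 to 7.41 in testis. None of the 5 red blood cell genes was called, and their median was 0.03. Mean levels on the fibroblast and testis arrays were 5.73 to 6.39 and 6.31 to 6.94 for endothelial genes, and 6.20 to 6.89 and 6.99 to 7.49 for those of macrophages and leukocytes. How far these cells bear on the differences of stroma genes was not tested.

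The size of the difference depended on the center for a small share of genes. The tissue by center interaction had an adjusted p under 0.05 from limma in 420 genes (2.97%), and in 163 of the 2956 called genes (5.51%). In 88 of these the difference was largest at Oregon, in 68 at Nebraska and in 7 at Yerkes. In fibroblast the CXCL8 signals were 12.28 and 12.24 on the Oregon arrays, 10.11 and 10.03 on those of Nebraska, and 11.32 and 11.13 on those of Yerkes, while the testis arrays stayed between 5.24 and 6.02. Its difference was thus 6.84, 4.73 and 5.32 at these centers. The difference was also largest at Oregon for GREM1, with differences of 3.45, 1.60 and 1.51, and for ITGB1, the beta 1 integrin, with 2.17, 0.66 and 1.28. IL6 differed by 6.04 on the Oregon arrays, against 5.06 on the Nebraska and 5.04 on the Yerkes arrays. COL3A1, a fibrillar collagen, was not called at 0.59, and its difference was 1.72 on the Oregon, -0.19 on the Nebraska and 0.24 on the Yerkes arrays. The 3' minus 5' difference was smallest at Oregon and largest at Nebraska, and its part in these genes was not tested.

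**Figure D5:**
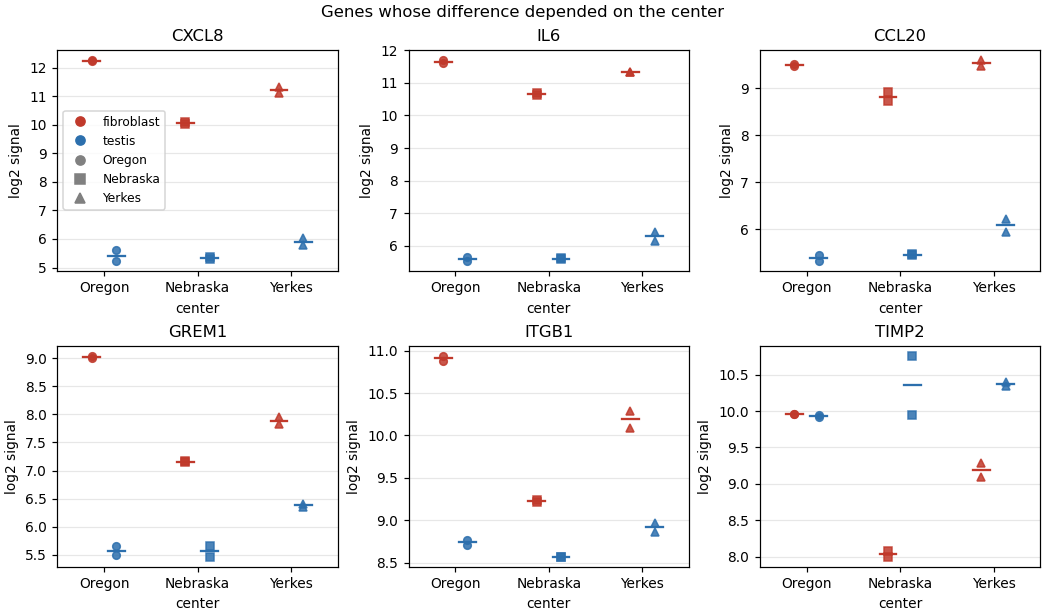
Log2 signal (y axis) of 6 genes whose difference depended on the center (x axis), with each fibroblast (red) and testis (blue) array as a point and the mean of both aliquots as a line. For CXCL8 the fibroblast arrays run from 12.28 at Oregon to 10.03 at Nebraska, and for TIMP2 the tissues meet at Oregon.

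For 237 of the genes named or listed there were several probesets, and these differed in call for 104 of them. Among the 30 genes with the largest differences, PENK, GSTM3, SOD2 and GPNMB each had a probeset that was not called, at -0.67, 0.19, -0.28 and 0.00, beside the one described, and TFPI2 had 2, at 0.11 and -0.60. Calls in opposite directions occurred for 4 genes, BDKRB1, CD68, GPI and PTTG1. For them, and for TERT and CXCL12, the direction or the call holds only for the probeset described. Calls of further named genes also depended on the probeset. Averaged over all probesets, COL1A1 (0.838), COL18A1 (-0.293), LAMA2 (-0.85), MKI67 (0.645), MMP2 (0.967), PLOD1 (0.489) and SERPINH1 (0.875) were not called. The same held for GSN (0.86), HOXC6 (-0.597) and VWF (-0.937), among others.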

How the data were processed

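The deposited values were log2 signals of 52865 probesets, which the authors made by MAS 5.0 background correction, quantile normalization of the 10 arrays of each center and RMA summary of all 30 arrays, with versions not given in the sources used here. RNA was extracted with Trizol, and 5 ug was labeled for each array. Nothing was normalized again. Fibroblast and testis were compared with limma 3.58.1 in R 4.3.3 (lmFit and eBayes, tissue and center as terms), with Benjamini-Hochberg adjustment over all probesets. Of the probesets, 24969 carried 1 gene symbol in the platform annotation, 361 several and 27535 none. The number of arrays limits the precision, and no detection calls were used here. The scripts were tested on simulated data.

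Named were the 15 called genes with the largest difference in each direction, separated at each center and without LOC or open reading frame symbols, then up to 4 called members of each list in each direction, and up to 3 members that were nearly equal or went against their list. Further list members, such as VIM, MMP2, NID1 and PRM1, were named after their values were seen. Members and lists were chosen with earlier results of these data known. Technical replicate numbers did not pair the samples, as deviations of same-numbered arrays correlated at 0.0222, 0.0382 and -0.225. Alternatives covered normalization, center terms, single centers, left-out arrays, the probeset rule and the minimum difference. Promoter sequences were not analysed here.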

Additional observations from a re-analysis of the deposited data

Results flagged for a closer look

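Of 318 groups of 6 arrays (each named gene in each tissue), 6 had 1 array far from the other 5 by Dixon's test at the 95% level, all of them in testis. Chance would flag about 1 in 20 groups, or 16 here, if the 6 arrays of a group were independent draws from 1 distribution. They were not, since each center supplied 2 of them and the Yerkes arrays had the highest mean signals for both tissues. The groups also share the same arrays, so the count of flagged groups cannot be compared with that number. Aliquot 1 at Nebraska was the highest for COL18A1 at 9.77 (next 8.88) and for IGF2 at 11.38 (next 9.59), and the lowest for SYCP1 at 4.94 (next 5.52). Aliquot 2 at Nebraska was the lowest for NR2F2 at 10.08 (next 10.44). Aliquot 2 at Yerkes was the highest for CTHRC1 at 6.20 (next 5.95) and for GPNMB at 6.49 (next 6.13). All 6 genes were called with every array included, and fibroblast and testis did not overlap in any of them.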

How the results depend on the processing

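Of 159 named genes, 133 kept their direction and call under each of 27 settings they could be run in, and 155 did so whichever array was left out. Leaving out 1 array gave between 1589 and 1666 genes higher and between 1302 and 1362 lower in fibroblast (3530 to 3715 and 4420 to 4633 probesets). With the replicate block 1630 genes were higher and 1326 lower, the same 2956 genes. The same counts came without a center term, with aliquots averaged first, with all 30 arrays in 1 fit and with a trend in the prior variance. In this balanced design such settings leave the differences unchanged, and the minimum difference sets the calls. They are among the 27 settings but are no test of how stable the calls are. Without a minimum difference 6058 genes were higher and 4389 lower (19213 and 15773 probesets), and with a minimum of 2 there were 459 and 363 (985 and 1030 probesets). Averaging all probesets of a gene kept 2219 of the 2956 calls, changed the sign of 33 and gave 2 calls in the other direction. The 3' minus 5' difference was 0.36 at Oregon and 2.01 at Nebraska for GAPDH, and 0.26 and 2.18 for ACTB. Signs turned for TIMP2 at Oregon alone (0.024), COL3A1 at Nebraska alone (-0.19) and CXCL12 at Yerkes alone (-0.12), without Oregon (-0.027) and over all probesets (-1.41). Averaging probesets also turned CD68 (-0.26) and GPI (0.11), whose probesets have opposite calls. The cause of the others was not tested. Each tissue was 1 RNA on 6 arrays, so no setting bears on the spread between animals or cultures.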

Other observations

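Several genes outside the lists also differed widely, and they were chosen after their values were seen. HAS2, a hyaluronan synthase, was at 9.68 to 10.21 in fibroblast and 4.25 to 5.13 in testis, and TNFAIP6, which modifies hyaluronan, at 9.75 to 10.76 in fibroblast and 5.51 to 6.54 in testis. The metallothionein MT2A differed by 4.98, the lectin LGALS3 by 4.73 and the collagen-degrading cathepsin CTSK by 3.37. The transcription factors RUNX2, of bone formation, and PRRX1, of limb mesenchyme, differed by 4.31 and 3.40. For all 7 genes every fibroblast array lay above every testis array, as in 16.9% of all genes, which the choice of genes favored.

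In the other direction, the glutathione transferases GSTA3 and GSTA4 differed by -4.49 and -3.16, beside GSTM3 of the report. SELENOP, a selenium transport protein, was at 7.28 to 8.07 in fibroblast and 11.69 to 12.22 in testis. LHX9, a transcription factor of the developing gonad, was at 4.42 to 5.54 in fibroblast and 8.94 to 9.42 in testis. TXNIP, an inhibitor of thioredoxin, differed by -3.23 and GATM, an enzyme of creatine synthesis, by -3.36. All 6, chosen in the same way, were lower in fibroblast on every array, as were 13.9% of all genes.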
